A study of Mus musculus with 7 samples.

Results

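The RNAs made from the mitochondrial genome were measured in endothelial cells of mouse skeletal muscle, by bulk RNA sequencing. They were taken as every row of the deposited tables whose gene symbol starts with mt-, and they numbered 15 of the 30899 rows in each table. Of these, 13 were mRNAs and 2 were ribosomal RNAs. A further class was sought, the transfer RNAs, but 0 of the rows used here had a symbol starting with mt-T, so the 22 tRNA genes annotated on the mouse mitochondrial genome were not analysed here.

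The series compares 3 libraries labelled wild type with 4 labelled as knockout of GLUT1 in the endothelium, a design stated to ask how endothelial GLUT1 bears on metabolic balance in muscle. GLUT1, encoded by Slc2a1, carries glucose across the endothelial membrane. All 7 libraries came from muscle endothelial cells isolated with beads, with no special treatment and with RNA extracted directly afterwards. The Cre line, the deleted exons and the age and sex of the mice are not given in the sources used here, nor is it stated that the libraries come from separate animals. The p-values therefore cover the spread between these libraries alone, which may be technical.

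The mitochondrial genome is a small circle, and both of its strands are transcribed as long RNAs. Transfer RNAs lie between most of the other genes, and their excision frees the mRNAs and rRNAs. The mRNAs encode core subunits of the respiratory chain and ATP synthase, and the rRNAs build the ribosome that translates them. All proteins that copy, transcribe, process and translate this genome come from nuclear genes. Endothelial cells make much of their ATP by glycolysis and hold fewer mitochondria than muscle fibres.

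On the GENCODE M21 map of this genome, 28 of the 37 genes lie on the plus strand and 9 on the minus strand, and of the mRNAs only that of mt-Nd6 is read from the minus strand. The mRNAs run from 204 bases (mt-Atp8) to 1824 bases (mt-Nd5). Of the 13 mRNAs, 3 end in a lone T of the stop codon, namely mt-Co3, mt-Nd4 and mt-Cytb, whose stop is completed by the poly(A) tail. Some neighbouring reading frames overlap, and how reads from the shared bases were assigned is not stated in the sources used here. The overlap of mt-Atp6 with mt-Co3 is 1 base and is not printed. The sequences that hold the 3 longer overlaps are shown because they hold the bases that these neighbours share. They are taken from the GENCODE M21 transcripts of the GRCm38 build, written 5′ to 3′ in the sense of each mRNA, with shared bases in capitals. The first is the whole of mt-Atp8, of which 43 bases also open mt-Atp6. The others are the last 40 bases of mt-Nd4l, which shares 7 bases with mt-Nd4, and of mt-Nd5 and mt-Nd6, which share 14 bases on opposite strands.
mt-Atp8: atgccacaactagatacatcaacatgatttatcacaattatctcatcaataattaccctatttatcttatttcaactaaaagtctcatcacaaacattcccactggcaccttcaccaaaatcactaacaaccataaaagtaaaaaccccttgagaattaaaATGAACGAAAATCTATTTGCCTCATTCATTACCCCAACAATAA
mt-Nd4l: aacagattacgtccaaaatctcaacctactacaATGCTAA
mt-Nd5: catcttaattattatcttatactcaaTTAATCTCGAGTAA
mt-Nd6: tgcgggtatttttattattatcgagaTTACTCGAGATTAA

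Values are the authors' normalised counts, read counts per gene scaled between libraries. Their totals ran from 11855652 to 13441728 for wild type, against 14592369 to 15731074 for the knockout-labelled libraries. Estimated from the spacing of low values, 14736944 to 18020310 and 11260176 to 14156876 reads lay behind these totals. Reads estimated for a mitochondrial RNA in 1 library then ran from 455 (mt-Nd3, wild-type library 1) to 776322 (mt-Rnr2, knockout-labelled library 3), so counting error is small beside the spread between libraries. Slc2a1 held 1032, 1083 and 1266 normalised counts in wild type and 952.6, 1435, 824.2 and 1087 in the other group (log2 fold change -0.09, SE 0.18, adjusted p = 0.738, limma with Benjamini-Hochberg adjustment). Its estimate was 0.02 without knockout-labelled library 3, -0.22 with quantile normalization, -0.29 with equal totals of non-mitochondrial rows, -0.32 with equal totals and -0.62 with equal mitochondrial mRNA sums. It was called in none of the fits tried, where the lowest limma adjusted p was 0.0716, in the last of these. The targeted gene thus did not pass the test as lower, and the second group is called knockout-labelled throughout. The endothelial markers Cdh5 and Pecam1 were high in all libraries, at 21691 to 40196 and 25539 to 38715 normalised counts. Between 2794 and 6551 rows were listed at 0 per wild-type library, against 7301 to 9306 per knockout-labelled library. All 7 smooth muscle and all 5 erythroid markers were called higher in the knockout-labelled libraries, as were 5.98% of all tested genes. The erythroid markers summed to 1757 to 5507 in wild type, against 4397 to 20253 in the knockout-labelled libraries, with overlap.

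Mitochondrial mRNAs were higher in the knockout-labelled libraries, in 7 of 13 genes by the test and in all 13 by the sign of the estimate; 6 of the 13 signs turned with the mitochondrial mRNA sums made equal, where some must turn by construction. The 7 were mt-Nd1, mt-Nd2, mt-Nd3, mt-Co2, mt-Co3, mt-Atp6 and mt-Atp8, and 0 of 13 were lower. Over all 16931 genes with a mean of at least 10 normalised counts, 5.98% were called higher and 5.53% lower at an adjusted p under 0.05. The median log2 fold change of the 13 mRNAs was 0.57, and that of all tested genes 0.02. In 11 of the 13 every knockout-labelled value lay above every wild-type value, as held for 14.7% of all tested genes. The same held for 363 of 682 nuclear protein-coding genes of like exonic length (204 to 1824 bases) whose mean reached 100. Among nuclear protein-coding genes of any length averaging 900 or more, it held for 829 of 2874, and 15.0% were called higher. All 13 mRNAs and both rRNAs passed the filter on low values. In bulk RNA, more cells of a type and more RNA per cell cannot be told apart.

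Wild-type library 1 stood apart from the others. In all 15 mitochondrial genes the lowest of the 7 values was that of wild-type library 1, at 0.405 (mt-Nd3) to 0.826 (mt-Atp6) of the mean of wild-type libraries 2 and 3. The share of all genes lowest in that library is not given here, so this is not read as particular to mitochondrial genes. Its total was also the lowest, 11855652 against 13406183 for wild-type library 3, the next lowest. Cdh5 and Pecam1 were lowest there too, while Malat1, a nuclear noncoding RNA, was highest there. Without wild-type library 1, limma called 0 of 13 mRNAs higher, while the share of all genes called higher was 0.116%. At an unadjusted p under 0.05 stood 8 of the 13 and 20.3% of all genes. The median of the 13 was then 0.37. Among the 7 that had been called, the log2 fold change without that library was 0.67 for mt-Nd3, 0.38 for mt-Nd1, 0.37 for mt-Nd2 and mt-Co2 and 0.57 for mt-Co3, each less by over 1.5 times. It was 0.61 for mt-Atp8 and 0.42 for mt-Atp6. Leaving out knockout-labelled library 1, 3 or 4 left 1, 4 and 2 of 13 called. Over all genes 608 of 17124, 1975 of 17010 and 652 of 17170 were then called in either direction, against 1949 of 16931 with all libraries. Scaling every library to the same total shifted the median of all genes to -0.21. Then 3 mRNAs were called higher, mt-Nd3, mt-Co3 and mt-Atp8, and 0 lower, against 1.33% of all genes higher and 9.61% lower. With the totals of non-mitochondrial rows made equal the count was again 3 higher and 0 lower, against 1.60% and 8.37% of all genes.

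**Figure D1:**
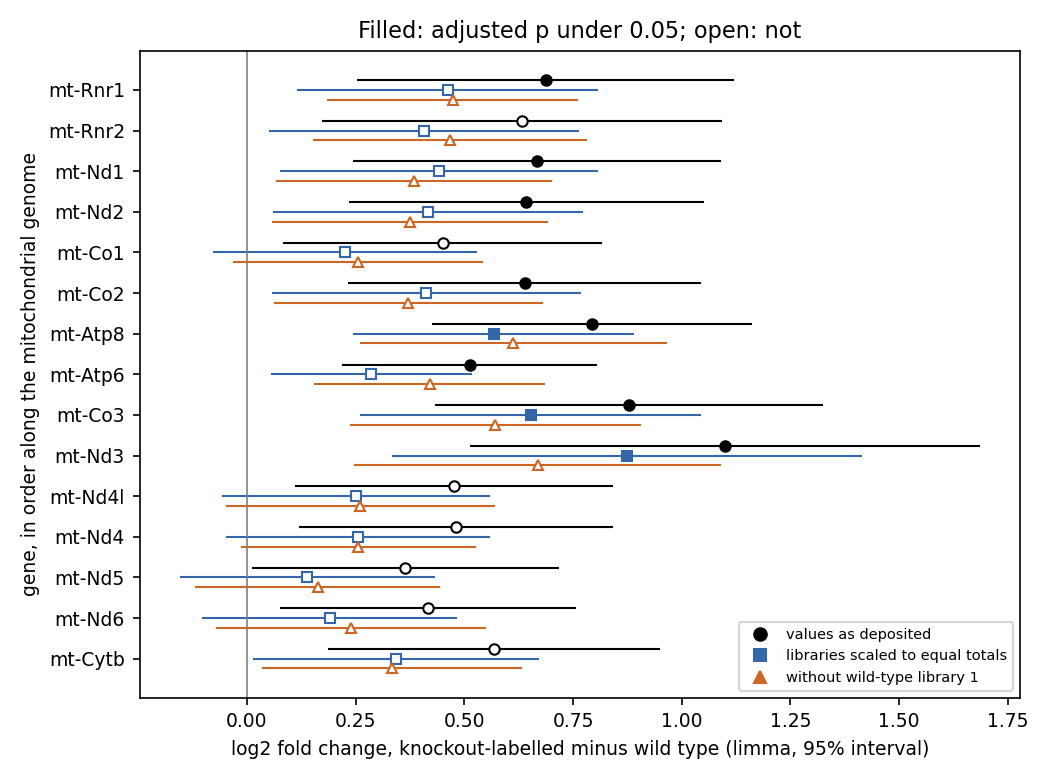
Log2 fold change (knockout-labelled minus wild type) with its 95% interval from limma for each mitochondrial rRNA and mRNA, in genome order, for the values as deposited, for libraries scaled to equal totals and without wild-type library 1. All points lie above 0, filled points mark an adjusted p under 0.05, and none is filled without wild-type library 1; with quantile normalization, not drawn, mt-Rnr2 stood at -0.05.

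Complex I, the entry point of electrons from NADH, takes 7 of its core subunits from this genome. Of their mRNAs, mt-Nd3, mt-Nd1 and mt-Nd2 rose and the other 4 did not pass the test. mt-Nd3 encodes a small membrane subunit, and its mRNA had the largest estimate of the 15 genes. Normalised counts of mt-Nd3 were 299, 815 and 662 in wild-type libraries 1 to 3 and 1376, 861, 1277 and 1232 in knockout-labelled libraries 1 to 4. The groups did not overlap, but knockout-labelled library 2 lay only just above wild-type library 2. The means of mt-Nd3 were 592 ± 265 (SD, n = 3) and 1187 ± 225 (SD, n = 4), with log2 fold change 1.10 (SE 0.27, 95% interval 0.51 to 1.69, limma adjusted p = 0.0268).

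mt-Nd1 encodes a subunit that lines the quinone-binding pocket. Its values were 6007, 10827 and 10850 in wild type, against 16658, 11645, 15688 and 13152 in the knockout-labelled libraries (log2 fold change 0.67, SE 0.20, limma adjusted p = 0.0444). Values of mt-Nd2, a proton-pumping subunit, were 3883, 7034 and 6537 against 9831, 7099, 10036 and 8520 (log2 fold change 0.64, SE 0.19, limma adjusted p = 0.0449). In both genes the knockout-labelled library 2 stood close above the upper wild-type values and wild-type library 1 far below the rest.

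The proton-pumping subunit genes mt-Nd4 and mt-Nd5, the small subunit gene mt-Nd4l and the minus-strand gene mt-Nd6 were less far apart between groups. mt-Nd4 was at 8462, 13827 and 13166 in wild type, against 17859, 14345, 17729 and 14857 in the knockout-labelled libraries (log2 fold change 0.48, SE 0.17, limma adjusted p = 0.0745). mt-Nd4l was at 1668, 2775 and 2464 against 3780, 2757, 3145 and 2941, with the groups overlapping (log2 fold change 0.48, SE 0.17, limma adjusted p = 0.0781). These neighbours, whose frames overlap by 7 bases as printed above, kept a similar ratio of levels per kilobase, 0.905 ± 0.0326 (SD, n = 3) in wild type, against 0.904 ± 0.0659 (SD, n = 4) in the other group. mt-Nd5 was at 10942, 17098 and 16221 against 21395, 16618, 20131 and 16868, and the groups overlapped (log2 fold change 0.36, SE 0.16, limma adjusted p = 0.143). It had the smallest estimate of the 15 genes.

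For mt-Nd6, read from the other strand, values were 2595, 3879 and 3610 in wild type, against 5190, 3908, 4838 and 3887 in the knockout-labelled libraries (log2 fold change 0.42, SE 0.16, limma adjusted p = 0.0938). Knockout-labelled libraries 2 and 4 lay barely above wild-type library 2. Per kilobase, mt-Nd6 stood at 0.804 ± 0.0263 (SD, n = 3) of its antisense neighbour mt-Nd5 in wild type, against 0.833 ± 0.0191 (SD, n = 4) in the knockout-labelled libraries, with overlapping ranges. The sources used here do not say whether the counting kept strands apart, so reads of mt-Nd6 and of antisense RNA across its span cannot be told apart.

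Cytochrome b, encoded by mt-Cytb, is the 1 subunit of complex III made in the mitochondrion. In normalised counts it was at 10907, 18074 and 17389 in wild type, against 24481, 19114, 26005 and 20527 in the knockout-labelled libraries. The groups did not overlap, and the log2 fold change of 0.57 (SE 0.18, limma adjusted p = 0.0532) narrowly missed the threshold. Over the alternatives tried, the adjusted p of mt-Cytb ran from 0.0492 to 0.88.

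The catalytic core of cytochrome c oxidase, complex IV, consists of the products of mt-Co1, mt-Co2 and mt-Co3. mt-Co3 rose from 3360, 6421 and 6323 to 11077, 7504, 10670 and 9062 normalised counts, with no overlap. Its means were 5368 ± 1739 (SD, n = 3) and 9578 ± 1634 (SD, n = 4), with log2 fold change 0.88 (SE 0.21, 95% interval 0.43 to 1.33, limma adjusted p = 0.0237). The mRNA of mt-Co2, whose product receives electrons from cytochrome c, was at 4672, 8305 and 8003 against 11557, 8782, 12383 and 9836 (log2 fold change 0.64, SE 0.19, limma adjusted p = 0.0448). The groups were again apart, with knockout-labelled library 2 the lowest of its group.

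mt-Co1 encodes the subunit that reduces oxygen, and its mRNA had the highest count of the 13. Its values were 30827, 45225 and 47213 in wild type, against 61998, 49118, 61082 and 49842 in the knockout-labelled libraries. The groups were apart by a narrow margin, and the log2 fold change of 0.45 (SE 0.17, limma adjusted p = 0.0925) did not pass. No alternative tried brought mt-Co1 past the threshold, and the lowest adjusted p was 0.0716.

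ATP synthase takes the products of mt-Atp6 and mt-Atp8 into its membrane sector, where the former lines the proton path. mt-Atp6 was at 17321, 21280 and 20670 normalised counts in wild type, against 32622, 25849, 25855 and 28431 in the knockout-labelled libraries. This gene varied least among the wild-type libraries, with the highest 1.23 times the lowest, and the groups were clearly apart (log2 fold change 0.51, SE 0.14, limma adjusted p = 0.0335). mt-Atp8 was at 704.6, 1072 and 982.5 against 1862, 1271, 1707 and 1504. Its means were 920 ± 192 (SD, n = 3) and 1586 ± 256 (SD, n = 4), with log2 fold change 0.79 (SE 0.17, 95% interval 0.43 to 1.16) with the lowest adjusted p of the 15 genes (limma adjusted p = 0.0189). Of the 204 bases of mt-Atp8, the 43 in capitals above also belong to mt-Atp6. The sources used here do not say how reads from these bases were counted, and the values of these 2 genes may not be independent.

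**Figure D2:**
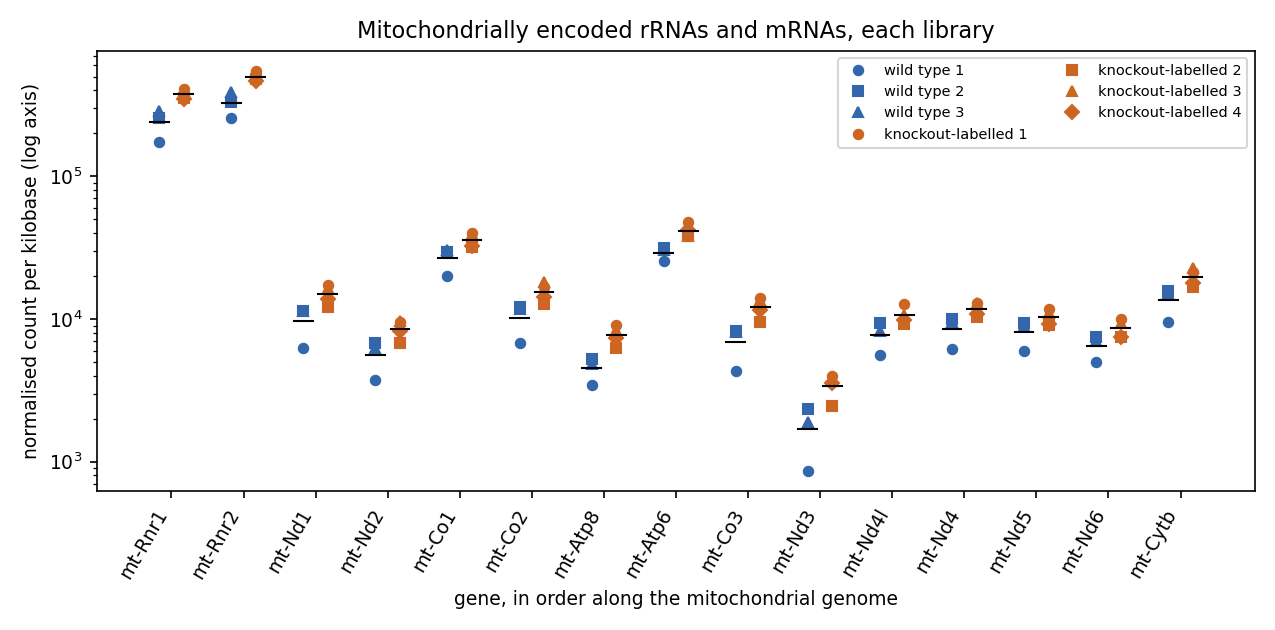
Normalised count per kilobase of each mitochondrial rRNA and mRNA in each library, on a log axis, in genome order; symbols are libraries and short lines are group means. Wild-type library 1 is the lowest point of each gene drawn, and mt-Nd3 is the lowest mRNA and mt-Atp6 the highest in the group means of both groups.

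Per kilobase, the order of the mRNAs was much the same in both groups. In wild type, mt-Atp6 (29012 ± 3131 normalised counts per kilobase, SD, n = 3) and mt-Co1 (26594 ± 5788) stood highest, followed by mt-Cytb (13511 ± 3457) and mt-Co2 (10224 ± 2947). The knockout-labelled libraries kept these 4 in the same order, at 41394 ± 4692 (SD, n = 4), 35929 ± 4517, 19696 ± 2835 and 15555 ± 2384. mt-Nd3 was last in both, at 1702 ± 761 and 3410 ± 648, after mt-Atp8 at 4508 ± 939 and 7775 ± 1257. The 13 levels spanned about an order of magnitude although 12 of the genes share 1 strand. Even the overlapping neighbours mt-Atp8 and mt-Atp6 were far apart, with a ratio per kilobase of 0.154 ± 0.0166 (SD, n = 3) in wild type. In the knockout-labelled libraries it was 0.188 ± 0.0242 (SD, n = 4). Short length, shared bases and nuclear copies may bear on counts per kilobase, so their order need not be that of RNA abundance. Their part was not tested. Of 12 pairs of neighbours in the order, 2 had library ranges that did not overlap, in each group: mt-Co1 above mt-Cytb, and mt-Atp8 above mt-Nd3. The other neighbours did not differ beyond the range of their libraries. Compared within each library, 10 of the 12 wild-type pairs kept their order in all 3 libraries, and 7 of the 12 pairs of the knockout-labelled order did so in all 4. Between the groups, mt-Co3 moved from rank 9 to rank 6 and mt-Nd5 from rank 7 to rank 9. Level per kilobase did not follow gene order in wild type (Spearman rho -0.07 across 13 genes of the same libraries, given as a description).

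As shares of their own sum, the mRNAs of each enzyme complex had similar means in the groups, with overlapping ranges. Complex I mRNAs made up 34.7% ± 1.31 (SD, n = 3) of the mitochondrial mRNA sum in wild type, against 34.3% ± 0.386 (SD, n = 4) in the knockout-labelled libraries. Complex IV mRNAs made up 38.8% in both (SD 0.973 and 0.814), ATP synthase mRNAs 15.4% ± 2.07 and 15.4% ± 1.55, and mt-Cytb 11.2% ± 0.414 and 11.5% ± 0.546. The ATP synthase share varied between libraries, from 14.1% to 17.7% in wild type and from 13.1% to 16.6% in the knockout-labelled group. Within the complexes the shares of a few single genes lay apart between groups. mt-Co3 took 3.31%, 4.10% and 4.10% of the sum in wild type, against 5.04%, 4.44%, 5.07% and 5.02% in the knockout-labelled libraries. The share of mt-Atp8 was 0.693%, 0.684% and 0.638% against 0.848%, 0.752%, 0.811% and 0.833%. Both were higher in each knockout-labelled library than in any of wild type. mt-Nd5 went the other way, from 10.8%, 10.9% and 10.5% to 9.74%, 9.84%, 9.56% and 9.34%. The share of mt-Nd3 was 0.294%, 0.520% and 0.430% against 0.626%, 0.510%, 0.607% and 0.682%, with knockout-labelled library 2 inside the wild-type range. Shares of the other 9 mRNAs overlapped between groups. Among all 16931 tested genes, the deposited values lay wholly above wild type in 2481 and wholly below in 2390. Shares lying apart in a few of the 13 mRNAs are therefore not read as particular to these genes. When all libraries were scaled to the same mitochondrial mRNA sum, a setting added after the data were seen, limma called 0 of the 13 in either direction, with 1 at an unadjusted p under 0.05. The lowest adjusted p in that fit was 0.0703, for mt-Nd3 (log2 fold change 0.58). Differences in share are therefore given as descriptions.

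**Figure D3:**
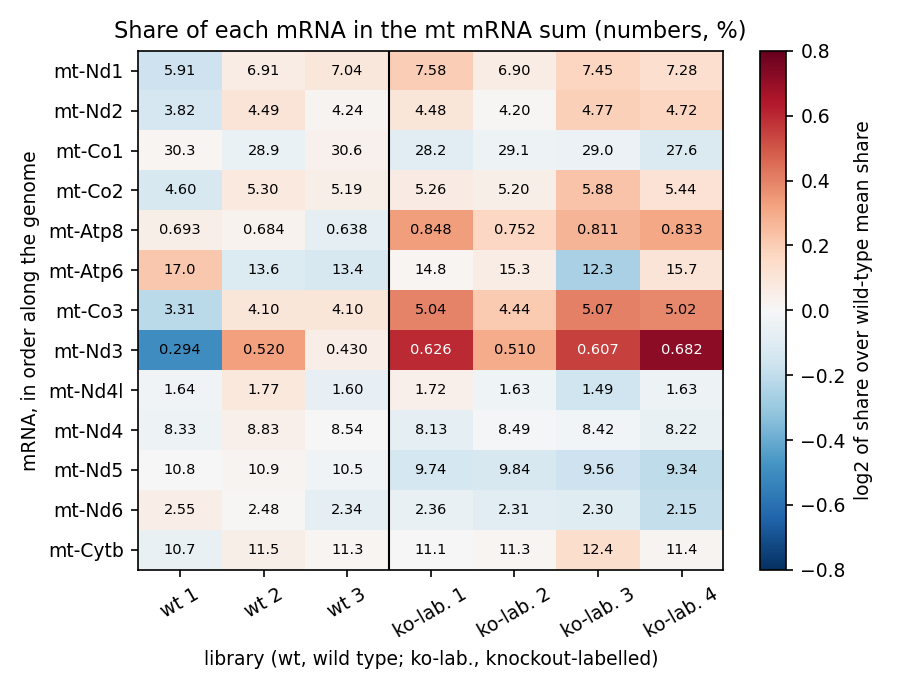
Share of each mRNA in the sum of the 13 mitochondrial mRNAs, in percent (numbers), by library, with colour giving the log2 of that share over the wild-type mean share. The rows of mt-Co3 and mt-Atp8 are higher, and that of mt-Nd5 lower, in all 4 knockout-labelled libraries than in any wild-type library, while wild-type library 1 is lowest for mt-Nd3 at 0.294%.

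Spearman's rho between log2 fold change and length was -0.41 across the 13 mRNAs. It was -0.42 with order along the genome and -0.47 with mean normalised count, all given as descriptions of genes measured in the same libraries. Among 682 nuclear protein-coding genes whose mean reached 100 and with an exonic length between 204 and 1824 bases, the median log2 fold change was 0.51 and 32.8% were called higher. Among 8863 longer ones the median was 0.14 and 7.60% were called higher. The median of the mitochondrial mRNAs, 0.57, was thus near that of nuclear genes of like length. The part of transcript length in the mitochondrial result was not tested.

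Taken as a class, the 13 mRNAs summed to 101649, 156631 and 154092 normalised counts in wild type, against 219690, 168872, 210547 and 180658 in the knockout-labelled libraries. As a share of the library total they made up 0.857%, 1.17% and 1.15% against 1.40%, 1.14%, 1.44% and 1.19%, with knockout-labelled library 2 below both upper wild-type libraries. The class therefore separated the groups on the scale of the deposited values but overlapped as a share. The share differed by 0.236 percentage points between the group means, and by 0.136 without wild-type library 1.

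The 2 ribosomal RNAs were by far the most abundant mitochondrial rows. mt-Rnr1, the RNA of the small ribosomal subunit, was at 165853, 245630 and 272356 normalised counts in wild type, against 388809, 338607, 381200 and 331595 in the knockout-labelled libraries. The groups were apart and mt-Rnr1 rose, from 227946 ± 55410 (SD, n = 3) to 360053 ± 29120 (SD, n = 4), with log2 fold change 0.69 (SE 0.20, 95% interval 0.25 to 1.12, limma adjusted p = 0.0439). mt-Rnr2, the RNA of the large subunit, was at 404455, 524517 and 620447 against 869921, 759643, 800204 and 732922. It too was apart, but with a log2 fold change of 0.63 (SE 0.21, limma adjusted p = 0.0673) it did not pass. The call of mt-Rnr1 ended in each fit that left out 1 library, other than wild-type library 3, and mt-Rnr2 turned to -0.05 with quantile normalization.

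Together the rRNAs made up 4.81%, 5.73% and 6.66% of the library total in wild type, against 8.002%, 7.43%, 8.10% and 7.01% in the knockout-labelled libraries. Unlike the mRNA share, this share did not overlap between groups. The sum of the rRNAs was 5.44 ± 0.463 (SD, n = 3) times that of the mRNAs in wild type, against 5.93 ± 0.397 (SD, n = 4) times in the knockout-labelled libraries, and here the ranges overlapped (4.92 to 5.79 and 5.61 to 6.50). A difference between the classes was therefore not larger than the spread between libraries. Per kilobase, the mean rRNA stood at 26.6 ± 2.27 and 28.5 ± 1.91 times the mean mRNA, and mt-Rnr2 at 1.38 ± 0.0916 and 1.33 ± 0.0405 times mt-Rnr1.

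**Figure D4:**
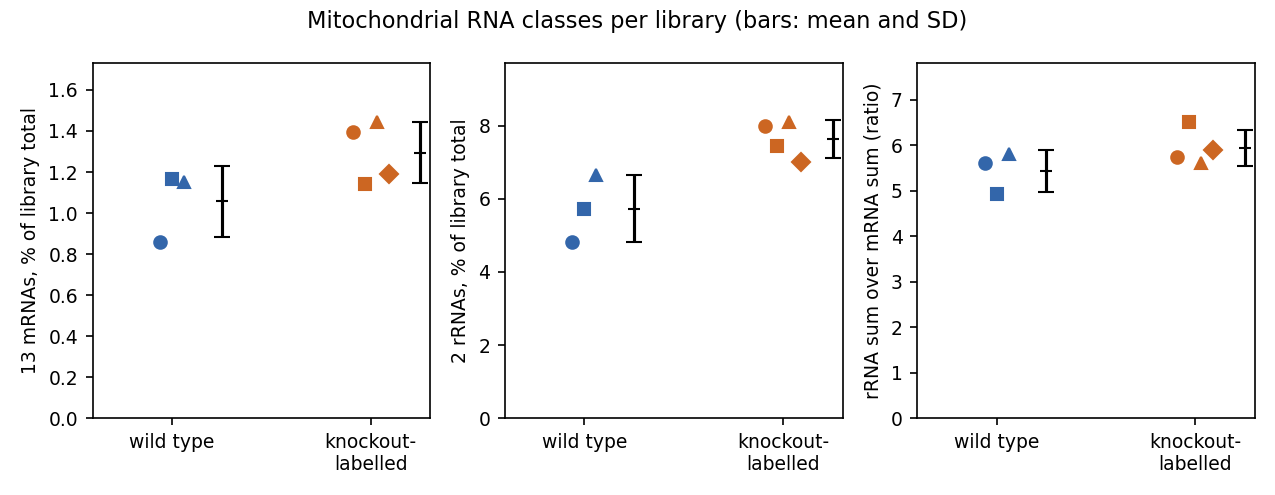
Share of the 13 mRNAs and of the 2 rRNAs in the library total (percent) and ratio of their sums, for the 3 wild-type and 4 knockout-labelled libraries; points are libraries and bars show mean and SD. The rRNA share separates the groups (up to 6.66% and from 7.01%), while the mRNA share and the ratio overlap.

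A row related to cytosolic ribosomal RNA was also higher in the knockout-labelled libraries. Rn18s-rs5, named as a sequence related to the small-subunit rRNA of the cytosol, was at 295470, 505174 and 484249 normalised counts in wild type, against 1039024, 582032, 784570 and 715053 in the knockout-labelled libraries (log2 fold change 0.87, SE 0.26, limma adjusted p = 0.0433). mt-Rnr2 stood at 1.23 ± 0.171 (SD, n = 3) times this row in wild type, against 1.05 ± 0.193 (SD, n = 4) times in the other group, with overlap. The sources used here do not say how much ribosomal RNA was removed before sequencing, and unequal removal and unequal abundance cannot be told apart in these rows.

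**Figure D5:**
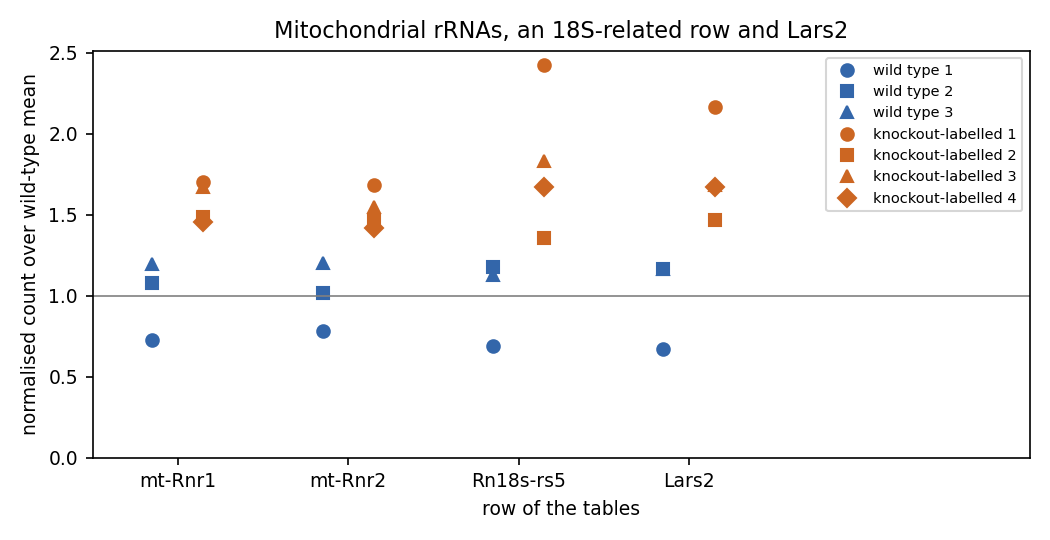
Normalised counts of both mitochondrial rRNAs, of the row Rn18s-rs5 and of Lars2 in each library, divided by the wild-type mean of that row. In all 4 rows wild-type library 1 is lowest and the 4 knockout-labelled libraries lie above the 3 wild-type ones, with knockout-labelled library 1 highest.

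Nuclear copies of mitochondrial DNA can take reads from these genes. In the GENCODE M21 transcripts, runs of 31 bases of mt-Co2 (100% of positions), mt-Co3 (99.9%), mt-Atp6 (99.5%), mt-Nd4l (98.9%) and mt-Nd3 (98.1%) also occur in nuclear genes, mostly annotated pseudogenes. For mt-Co1 this share was 63.9%, for mt-Nd4 62.8%, and for mt-Nd1 and mt-Rnr1 it was 0. Of the genes that share such runs, only Gm20594 and Gm43743 had a row. Gm20594, which shares 42 of 1552 runs with mt-Rnr2, was at 18.7 to 46.6 normalised counts, small beside mt-Rnr2. Gm43743 shares 9 of 651 runs with mt-Atp6, and its level is not given here. The sources used here do not say how reads that match both a mitochondrial gene and a nuclear copy were counted, and the levels of these mRNAs carry that uncertainty.

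Few nuclear genes that act on the mitochondrial genome passed the test. Of 21 genes for transcription and upkeep of mitochondrial DNA, 0 were called higher and 1 lower, against 5.98% and 5.53% of all genes. At an unadjusted p under 0.05 in limma stood 3 of the 21, and 32.3% of all genes. Their median log2 fold change was 0.06. The 1 was Polg2, the accessory subunit of the mitochondrial DNA polymerase. It fell from 347, 248 and 184 normalised counts to 105, 83.7, 122 and 78.2, a log2 fold change of -1.38 (SE 0.26, limma adjusted p = 0.0122). The catalytic subunit gene Polg was at 1138 ± 310 (SD, n = 3) and 1003 ± 197 (SD, n = 4), and the DNA ligase gene Lig3 at 365 ± 34.1 and 312 ± 45.7, and neither passed (limma adjusted p = 0.56 and 0.372).

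Of 29 genes for processing, polyadenylation and decay of mitochondrial RNA, 0 were called higher and 1 lower, against 5.98% and 5.53% of all genes. Their median log2 fold change was 0.17. An unadjusted p under 0.05 in limma was found for 6 of the 29, against 32.3% of all genes. Pde12, which removes poly(A) in mitochondria, was at 996, 1194 and 825 in wild type, against 676, 501, 737 and 571 in the knockout-labelled libraries, with no overlap (log2 fold change -0.69, SE 0.17, limma adjusted p = 0.027). Grsf1, an RNA-binding protein of mitochondrial RNA granules, was at 507, 611 and 647 against 826, 791.4, 672 and 914 and did not pass (log2 fold change 0.44, SE 0.15, limma adjusted p = 0.0733). Angel2 was at 570 ± 85.9 (SD, n = 3) and 552 ± 93.8 (SD, n = 4). The call of Pde12 ended without wild-type library 1 or 2 or knockout-labelled library 2 or 4, and that of Polg2 without wild-type library 1.

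An unadjusted p under 0.05 in limma was found for 5 of 31 genes for the maturation and charging of mitochondrial tRNAs, against 32.3% of all genes. Their median log2 fold change was 0.06. Of the 31, 1 was called higher and 0 lower, against 5.98% and 5.53% of all genes. The 1 was Lars2, named for the mitochondrial leucyl-tRNA synthetase, at 75313, 131246 and 131006 normalised counts in wild type, against 243450, 165454, 189907 and 187856 in the knockout-labelled libraries (log2 fold change 0.84, SE 0.22, limma adjusted p = 0.0292). The call ended without wild-type library 1 or knockout-labelled library 1 or 4. The level of Lars2 was far above that of Iars2, the isoleucine enzyme and the most abundant uncalled member, at 927 ± 105 (SD, n = 3) and 875 ± 81.5 (SD, n = 4). Lars2 also exceeded the count of every mitochondrial mRNA in each library. It shared 0 runs of 31 bases with mt-Rnr1 or mt-Rnr2 in the GENCODE M21 transcripts. Runs shared with cytosolic ribosomal RNA were not looked for. Like Rn18s-rs5, Lars2 was lowest in wild-type library 1 and highest in knockout-labelled library 1. Which RNAs gave the reads of this row was not tested, so its call need not be one of the synthetase mRNA. Gtpbp3, which modifies mitochondrial tRNAs, was at 338 ± 53.7 and 359 ± 65.9 and did not pass (limma adjusted p = 0.784).

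Muscle fibres, the mitochondria-rich neighbours of these cells, left little RNA in the libraries. The 15 fibre markers summed to 446, 899.99 and 929 normalised counts in wild type, against 968, 622, 951 and 986 in the knockout-labelled libraries, with overlap, 0 of 15 were called by limma (0 at an unadjusted p under 0.05), and none was at 0 in every library. The lowest sum was that of wild-type library 1, which was also lowest for each mitochondrial gene. Myh4 and Acta1, the fibre markers with the highest means, were at 46.3 to 169 and 63.0 to 161 normalised counts. With the mean log2 value of the fibre markers as a covariate, 1 of 13 mitochondrial mRNAs was called higher, mt-Co3, and 0 lower, against 0.750% and 0.910% of all genes. The 7 smooth muscle markers, led by Myh11, Acta2 and Tagln, summed to 30356 to 38570 in wild type, against 50344 to 61514 in the other group, and all 7 were higher. Macrophage markers, led by Lyz2, summed to 271 to 338 and 385 to 453, and 1 of the 7 tested, Lyz2, was higher. Lyz2 went from 62.9 ± 18.6 (SD, n = 3) to 204 ± 59.3 (SD, n = 4), a larger difference than that of the whole sum, whose means were 313 and 429. Cd68 stood at 80.3 ± 30.1 (SD, n = 3) and 33.5 ± 8.56 (SD, n = 4), lower with no overlap, and did not pass (limma adjusted p = 0.058). Markers of fibro-adipogenic progenitors summed to 5039 to 8939 in wild type, against 12170 to 15282 in the other group, with 3 of 7 tested higher. Satellite cell markers summed to 2511 to 3105, against 3371 to 3762, with 2 of 8 higher. Adipocyte markers summed to 18.2 to 23.2, against 32.4 to 138, with 1 of 2 tested higher, while 0 of 6 pericyte markers changed. Endothelial markers summed to 88515 to 114532, against 118016 to 131379, with 2 of 10 higher and 1 lower. Over all tested genes, 5.98% were called higher and 5.53% lower. No marker of these lists was at 0 in every library. The part of these cell types in the mitochondrial result was not tested.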

How the data were processed

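The deposited values are normalised counts per gene, treated as a scaled expression signal, with 1 table per library. Listed in the submitters' processing notes, with no role given, are GRCm39 and the tools featureCounts, kallisto, DESeq2 and DESeq. Whole reads were not recovered: of low values, up to 10 steps, 24.4% to 48.6% fell within 0.02 of a whole multiple of the step, the smallest value repeated at least 20 times. Count models were therefore not used. The total of a table over its step gave the estimated reads.

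Log2 of the normalised count plus 1 was tested for 16931 genes with a mean of at least 10 (limma 3.58.1, R 4.3.3, lmFit and eBayes with trend, Benjamini-Hochberg over all tested genes, threshold 0.05). Fold changes are knockout-labelled minus wild type and understate the change of low genes. The fit was tested on simulated data. Class sums and shares carry no test.

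Strand, order, length and sequence come from GENCODE M21 (GRCm38), so no coordinates are given. The members, gene lists and tests were chosen with earlier results of these data known. Named are Slc2a1, every mt- row, up to 6 called and 2 uncalled members of each nuclear list, and the most abundant markers of fibre, smooth muscle and macrophage; Cdh5 and Pecam1 and the rows Rn18s-rs5, Gm20594 and Gm43743 were added after values were seen. Alternatives were other pseudocounts, filters, scalings and limma settings, a replicate block, a fibre covariate and leaving out each library.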

Additional observations from a re-analysis of the deposited data

Results flagged for a closer look

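The share of mt-Co3 in the mitochondrial mRNA sum was 4.44% in knockout-labelled library 2, apart from 5.04%, 5.07% and 5.02% in the other 3 libraries of its group. Its distance to the nearest of them was 0.917 of the whole range of the group, above the 95% critical value of Dixon's test for 4 values. The share still lay above the wild-type values. Of 42 sets of 4 knockout-labelled values examined in this way it was the only one flagged, and chance flags about 1 in 20.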

How the results depend on the processing

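Each tested gene was refitted under 19 alternatives. The count of 7 mRNAs called higher became 3 with no filter, 3 with equal totals, 3 with equal totals of non-mitochondrial rows, 1 with quantile normalization, 4 with array weights, 1 with the fibre covariate, 0 without a mean-variance trend (8 at an unadjusted p under 0.05; 17 genes called in all) and 0 with equal totals of the mitochondrial mRNAs, and ran from 0 to 8 without 1 library. The rRNA count of 1 became 0 with a pseudocount of 5, no filter, both equal-total scalings, quantile normalization, no trend, the fibre covariate and equal mitochondrial mRNA totals, and ran from 0 to 1 without 1 library. In no setting was a member called lower. Over all genes, 1949 were called in either direction with the values as deposited. That number was 1565 of 30085 tested with no filter, 2289 with a pseudocount of 5, 1053 with quantile normalization and 1619 with array weights. It was 281 with the fibre covariate, 1873 with equal totals, 1704 with equal totals of non-mitochondrial rows and 3732 with equal mitochondrial mRNA totals. Estimates fell below 0 for mt-Rnr2 (-0.0511, quantile normalization) and, with equal mitochondrial mRNA totals, for mt-Co1 (-0.0725), mt-Atp6 (-0.0112), mt-Nd4l (-0.0462), mt-Nd4 (-0.0423), mt-Nd5 (-0.16) and mt-Nd6 (-0.11), since that scaling fixes their sum. Slc2a1 ran from -0.24 to 0.0233 without 1 library. The cause of the other changes was not tested.

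The transcription list, 1 changed gene, had 0 without trend and 4 with equal mitochondrial mRNA totals; the processing list, 1, had 0 without trend, 0 with the fibre covariate and 5 with equal mitochondrial mRNA totals; the tRNA charging list, 1, had 3 and 2 with equal totals of all or of non-mitochondrial rows, 3 with equal mitochondrial mRNA totals, and 0 with no filter, quantile normalization, no trend or the fibre covariate. Each ran from 0 to 1 without 1 library. The mRNA and rRNA shares differed by 0.136 to 0.290 and by 1.44 to 2.37 percentage points without 1 library, and by 0.285 and 2.23 over non-mitochondrial rows.

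With the replicate number as a block, 0 mRNAs, 0 rRNAs and 0 members of each nuclear list were called, with 119 genes in all. The labels give a number and do not state a pairing. Deviations of same-numbered libraries from their group means correlated at -0.0806, -0.048 and -0.125, and none of these was over 0.1. These few values do not settle whether such libraries were paired. tRNA results were not run, as the class had 0 rows.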

Other observations

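Divided by the step of low values in its library, the level of mt-Nd3, mt-Atp8 and mt-Nd4l was a whole number, within 0.02, in all 7 libraries, which held for 3 of the 15 mitochondrial genes. These are the 3 shortest of the mRNAs, at 348, 204 and 297 bases. Read in this way, mt-Nd3 had 455 reads in wild-type library 1, which had the highest estimated number of reads of the 7 libraries, and up to 1239 in the others. For the other 12 genes the quotient was whole in at most 1 library. Malat1, a nuclear noncoding RNA chosen after its values were seen, ran opposite to the mitochondrial genes in wild-type library 1, with 238403 normalised counts there, 140208 and 121226 in wild-type libraries 2 and 3, and 34284 to 68730 in the knockout-labelled libraries.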
